A study of Mus musculus with 9 samples.

Results

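Chemokines and chemokine receptors were followed in a mouse model of glioblastoma (GBM) as all genes whose symbols begin with Ccl, Cxcl, Cx3cl, Xcl, Ccr, Cxcr, Cx3cr, Xcr or Ackr and a number. Each had to be read by a probe set that names that gene and no other. This gave 55 of 22180 genes, 33 ligands and 22 receptors. Cxcl11, a transcribed pseudogene in RefSeq, was left out, and Ccl19 and Ccl21, which had no probe set of their own here, are not analysed with the 55. Total RNA from excised brain tissue had been hybridised to 9 Affymetrix Mouse Gene 2.0 ST arrays, and the values are log2 intensities after robust multichip averaging (RMA).

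The 9 arrays fall into 3 groups of 3. High-DOX P3 tumors came from mice fed 600 mg/kg doxycycline (DOX) and low-DOX P3 tumors from mice fed 25 mg/kg. P3 tumors carry the label hPDGF-A;hPDGFRα;p53lox. They arose after a lentivirus carrying Cre and a DOX-inducible human PDGF-A was injected into the striatum of adult mice, in which Cre turns on a human PDGFRα transgene under a CAG promoter and removes floxed p53. The higher dose is the one in the labels, and the study's text gives a slightly different figure. OPC lesions, named for the oligodendrocyte precursor cells (OPCs) they are rich in, came from mice fed 600 mg/kg. Their label reads hPDGFRα;p53, whereas the study's results and supplement describe the same virus in p53-floxed mice without the receptor transgene, and the difference could not be settled. The supplement describes the proliferating OPCs of those mice as endogenous and wild type for p53. All 3 groups thus share the virus, and the high-DOX tumors share their diet with the OPC lesions. The tumor comparison asks what differs between tumors grown at a higher and a lower DOX dose, which sets the expression of PDGF-A. The study reports that low-DOX mice survived longer than high-DOX mice and that only some low-DOX mice died of brain tumors. Survival time and dose therefore cannot be told apart in this comparison. The comparisons with OPC lesions set either tumor against non-tumor tissue. Low-DOX tumors and OPC lesions also differ in dose, 25 against 600 mg/kg, so tumor state and dose cannot be told apart there.

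Chemokines are small secreted proteins that attract leukocytes along a gradient. They are named for the spacing of their first cysteines (C, CC, CXC and CX3C), and they act through receptors that couple to inhibitory G proteins. Atypical receptors bind and clear chemokines without signalling through G proteins. In the brain, neurons carry Cx3cl1 (fractalkine) and microglia its receptor Cx3cr1, while Ccl2 with Ccr2 brings in monocytes, Cxcl9 and Cxcl10 with Cxcr3 bring in activated T cells, and Cxcl12 with Cxcr4 guides migrating precursors.

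OPC markers were read on every array, with a mean over Pdgfra, Cspg4, Olig1, Olig2, Sox10 and Gpr17 between 9.72 and 11.33. The arrays nevertheless differed within groups in ways the labels do not name. The mean of 7 neuron markers ranged from 6.36 to 10.5 in high-DOX P3 tumors, from 5.28 to 5.99 in low-DOX P3 tumors and from 5.95 to 10.45 in OPC lesions. One high-DOX tumor (replicate 2) carried choroid plexus markers at a mean of 7.88, against 4.14 to 4.38 on the other 8 arrays. One low-DOX tumor (replicate 3) carried fibroblast markers at 10.64, against 5.48 to 7.09 elsewhere. The interferon response list averaged 8.22 in low-DOX replicate 1 and 7.96 in OPC lesion replicate 2, against 5.49 to 6.45 on the other 7 arrays. These lists are set beside the chemokine results below. Correlations between arrays of the same group (r of 0.92 to 0.973) overlapped those between groups (0.901 to 0.985).

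The first question was which chemokines and receptors were read above background. On each array the threshold was the 95th percentile of 1405 olfactory, vomeronasal and trace amine receptor genes, which a brain tumor is not expected to use, and it lay between 4.23 and 4.50. On all 3 arrays of their group, 26 of the 55 genes were above it in high-DOX P3 tumors, 34 in low-DOX P3 tumors and 29 in OPC lesions. The share of all genes that passed was 62.7% in high-DOX tumors, 62.2% in low-DOX tumors and 63.3% in OPC lesions. As shares of the 55 these are 47.3%, 61.8% and 52.7%, so the low-DOX tumors came closest to the share of all genes. Under a 99th percentile the counts were 12 in high-DOX tumors, 16 in low-DOX tumors and 11 in OPC lesions, and the share of all genes was not counted there.

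On all 9 arrays, 25 genes were above background (17 ligands and 8 receptors), against 59.8% of all genes. Another 9 genes were above it on none: the receptors Ackr4, Ccr1l1, Ccr3, Ccr6 and Ccr9 and the ligands Ccl26, Cxcl15, Cxcl2 and Cxcl3. Of all genes, 27.4% were above background on no array. Genes above it on every low-DOX array and on no high-DOX array were Ccl8, Ccl22 and Ccr1, and the share of all genes with this pattern was not counted. Ccl8 attracts monocytes and T cells, Ccl22 attracts regulatory and helper T cells through Ccr4, and Ccr1 is a receptor of monocytes and other myeloid cells. Cxcl9 and Ccl12 were above background on every low-DOX array, and on 2 and 1 of the 3 high-DOX arrays. No gene was above background on every high-DOX array and on none of the low-DOX arrays.

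**Figure D1:**
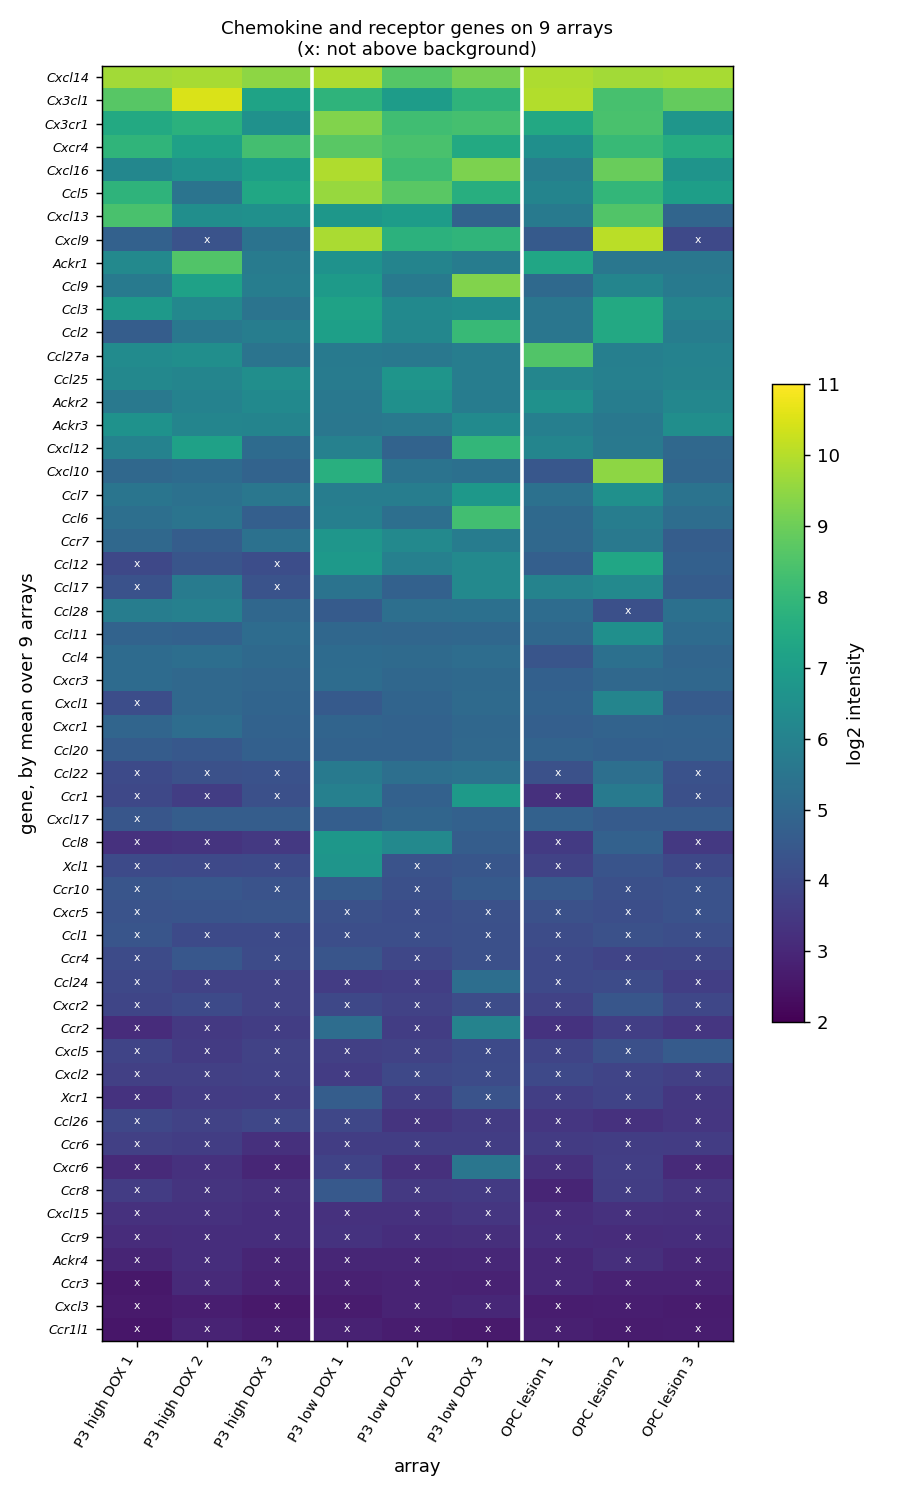
The 55 genes (rows, sorted by their mean for display) on the 9 arrays (columns, high-DOX P3 tumors, low-DOX P3 tumors and OPC lesions), coloured by log2 intensity, with a cross where the value was not above the array's background threshold. High-DOX columns hold the most crosses, and OPC lesion 2 differs from the other OPC lesions for Cxcl9, Cxcl10 and Ccl12.

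The comparison of high-DOX with low-DOX P3 tumors showed the widest separation. Ccl8, Ccl12, Ccl2, Cxcl16, Ccl22, Cxcl9, Ccr7, Ccr1, Ccr2 and Cx3cr1 lay lower on every high-DOX array than on any low-DOX array. None of the 55 passed limma's test after Benjamini-Hochberg adjustment over all 22180 genes, and neither did any other gene (0% called). The lowest adjusted p among the 55 was 0.376. At an unadjusted limma p under 0.05, 12 of the 55 were lower in high-DOX tumors, against 4.89% of all genes, and 0 were higher, against 5.25%. With every high-DOX array below every low-DOX array there were 15, against 7.76% of all genes, and with the reverse there was 1, Cxcr5, against 8.23%. In all, 41 of the 55 differences were below 0, against 50% of all genes, with a median of −0.17 over the 55. Centring each array on the median of its probe sets shifted all differences of this comparison by 0.11, after which 30 were below 0 and the median was −0.05. This shift is the same for every gene, so the place of the 55 relative to all genes did not change. The share of all genes below 0 after centring was not counted. After it, 10 of the 55 were lower and 1 higher at an unadjusted p under 0.05 (2.65% and 9.13% of all genes). The methods' t-test called 0 after adjustment and 8 of the 55 before it, against 7.47% of all genes.

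The 4 monocyte attractants had a median difference of −1.97, and the 2 interferon-induced ligands of Cxcr3 one of −2.40. Ccl2, the main ligand that draws monocytes through Ccr2, read 4.64, 5.59 and 5.82 in high-DOX tumors, against 7.08, 6.18 and 8.06 in low-DOX tumors and 5.55, 7.42 and 5.83 in OPC lesions. The tumor groups did not overlap, and OPC lesions spanned both. The difference of −1.75 (SE 0.629) had a limma adjusted p of 0.435. Ccl12, a mouse CC chemokine that also acts on Ccr2, read 3.96, 4.38 and 4.12 in high-DOX tumors, against 6.85, 5.91 and 6.25 in low-DOX tumors and 4.72, 7.34 and 4.76 in OPC lesions. Every high-DOX tumor was below all 6 other arrays, and OPC lesion 2 was the highest of the 9. The difference between tumors was −2.19 (SE 0.660, limma adjusted p = 0.413).

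Ccl8 read 3.29, 3.34 and 3.48 in high-DOX tumors, all below background, against 6.76, 6.23 and 4.66 in low-DOX tumors. In OPC lesions it read 3.52, 4.79 and 3.50. Because no high-DOX array measured it, Ccl8 was at least 2.87-fold lower in the high-DOX group (limma adjusted p = 0.376). This bound sets the low-DOX mean against the lowest signal above background and carries no sampling error. Ccl7, which binds several CC receptors, read 5.50, 5.36 and 5.56 in high-DOX tumors and 5.81, 5.81 and 6.80 in low-DOX tumors, a difference of −0.67 (SE 0.367), with OPC lesions at 5.37, 6.52 and 5.44. The tumors were separated by less than the spread of the OPC lesions. All 4 monocyte attractants had differences below 0, against 50% of all genes, and 3 of them had an unadjusted p under 0.05, against 4.89% of all genes (2.65% after centring).

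Other inflammatory CC ligands, Ccl3, Ccl4, Ccl5, Ccl6 and Ccl9, followed with wider scatter. Ccl5, made by T cells and other activated cells, read 7.84, 5.48 and 7.37 in high-DOX tumors, 9.60, 8.68 and 7.64 in low-DOX tumors and 6.06, 7.96 and 7.03 in OPC lesions. The lowest low-DOX value fell inside the high-DOX range, so the tumors overlapped. The difference of −1.74 (SE 0.767) had a limma adjusted p of 0.5. Ccl3 and Ccl4, produced by activated microglia and macrophages, differed by −0.45 (SE 0.543) and −0.01 (SE 0.213). Ccl3 read 6.82, 6.20 and 5.46 in high-DOX tumors, 7.17, 6.28 and 6.38 in low-DOX tumors and 5.55, 7.47 and 6.04 in OPC lesions. Ccl4 stayed between 4.39 and 5.32 on all 9 arrays. Neither gene separated any groups. Ccl6 and Ccl9, rodent ligands of Ccr1, were highest in low-DOX replicate 3, at 8.27 and 9.28, against 4.72 to 5.88 for Ccl6 and 5.09 to 7.14 for Ccl9 on the other arrays.

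Cxcl16, a transmembrane chemokine that binds Cxcr6 on T cells, read 6.15, 6.57 and 7.06 in high-DOX tumors, 9.94, 8.21 and 9.24 in low-DOX tumors and 5.85, 8.93 and 6.65 in OPC lesions. All low-DOX tumors were above all high-DOX tumors, and OPC lesion 2 lay within the low-DOX range. The difference between tumors was −2.54 (SE 0.777, limma adjusted p = 0.416). Its receptor Cxcr6 read 3.06, 3.29 and 2.98 in high-DOX tumors, 3.82, 3.25 and 5.53 in low-DOX tumors and 3.26, 3.66 and 3.06 in OPC lesions. Only low-DOX replicate 3 was above background.

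Ccl22 read 4.01, 4.22 and 4.28 in high-DOX tumors, all below background, against 5.70, 5.29 and 5.41 in low-DOX tumors and 4.22, 5.30 and 4.27 in OPC lesions. The tumors did not overlap, and its spread within low-DOX tumors was small (SD 0.212). Ccl22 was at least 2.16-fold lower in high-DOX tumors (limma adjusted p = 0.376). In the RefSeq gene order it is followed by Cx3cl1 and then Ccl17, and those genes did not share its pattern. Ccl17, the other Ccr4 ligand, differed by −0.71 (SE 0.582) with overlapping groups. Cx3cl1 read 8.67, 10.49 and 7.22 in high-DOX tumors, 7.85, 6.97 and 7.87 in low-DOX tumors and 9.96, 8.39 and 8.87 in OPC lesions. Its difference between tumors was 1.23 (SE 0.788, limma adjusted p = 0.616), the reverse sign of Ccl22, and the tumors overlapped. Its order over the arrays followed the neuron markers at the top end: high-DOX replicate 2 and OPC lesion 1, at 10.49 and 9.96, held the highest neuron list means of 10.5 and 10.45. Whether neuron content has a part in the Cx3cl1 values was not tested.

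**Figure D2:**
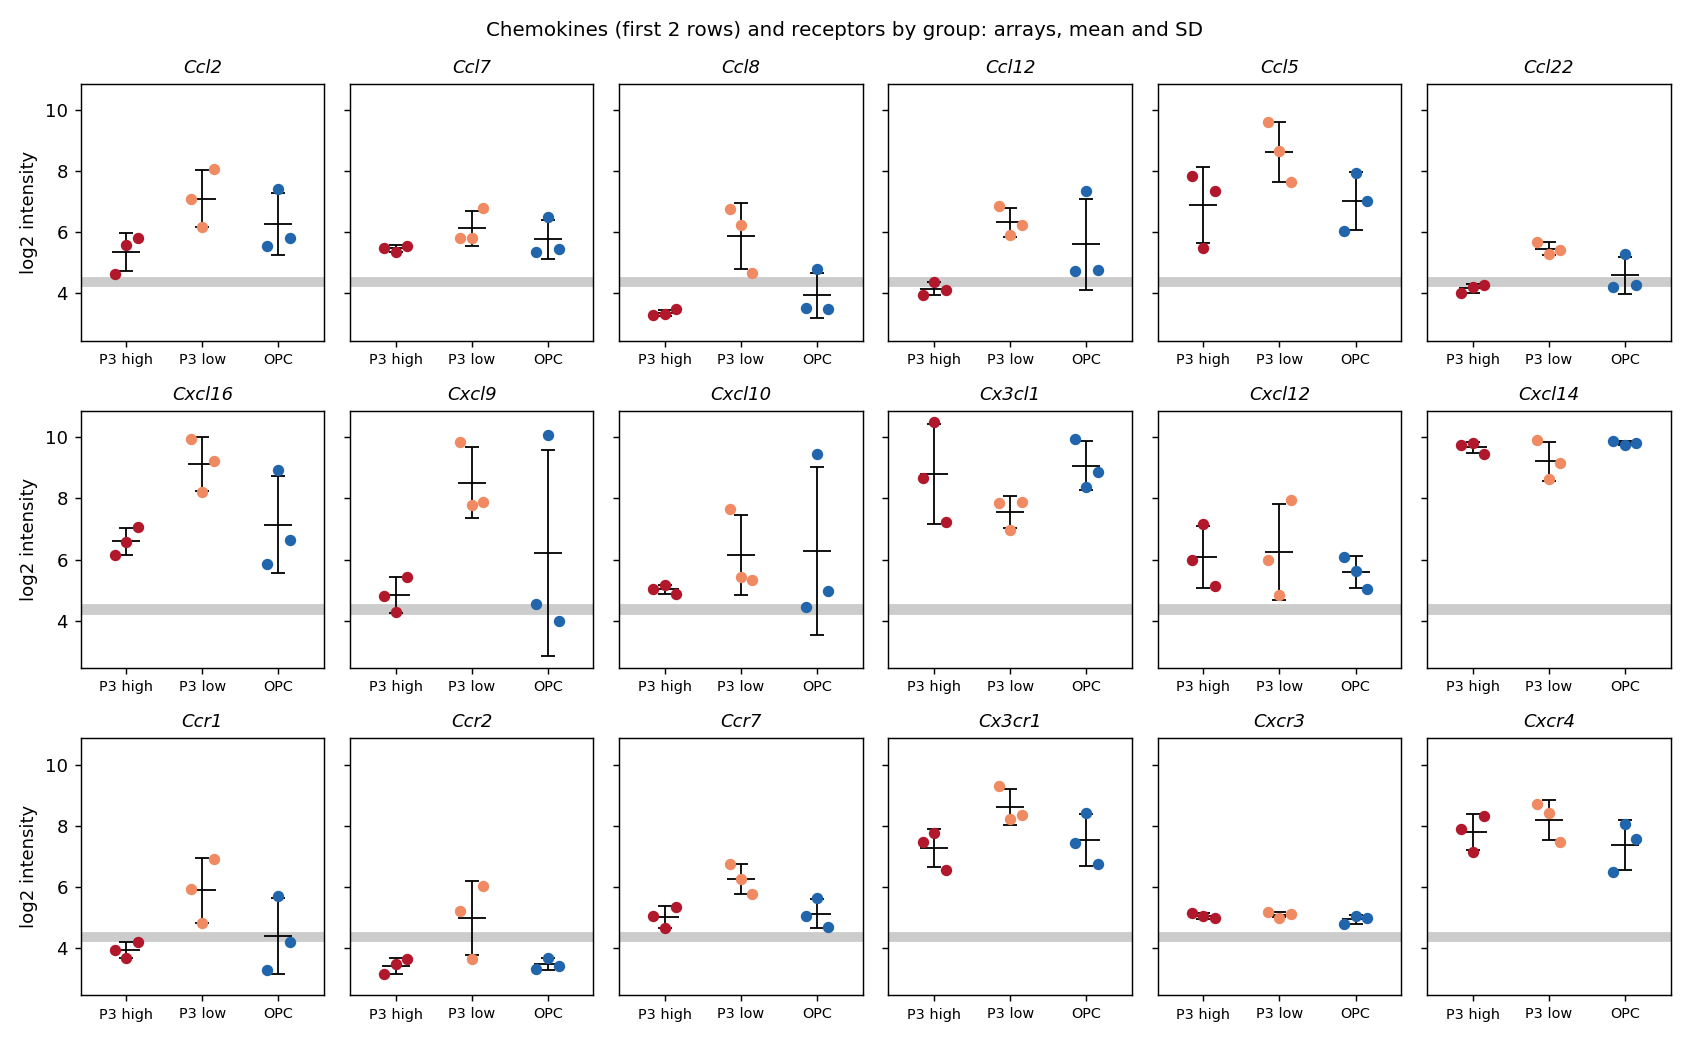
Log2 intensity (y axis) of 12 ligands and 6 receptors on each array of high-DOX P3 tumors, low-DOX P3 tumors and OPC lesions, with the mean and SD of each group of 3 as black bars and the range of background thresholds, 4.23 to 4.50, in grey. Low-DOX tumors lie above high-DOX tumors without overlap for Ccl2, Ccl7, Ccl8, Ccl12, Ccl22, Cxcl9, Cxcl10, Cxcl16, Ccr1, Ccr2, Ccr7 and Cx3cr1. Ccl5, Cx3cl1, Cxcl12, Cxcl14, Cxcr3 and Cxcr4 overlap.

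The ligands of Cxcr3 varied most of all. Cxcl9 had the largest range over the 9 arrays among the 55 genes, 6.10 on the log2 scale, and Cxcl10 the next, 5.02. Both are induced by interferons. Cxcl9 read 4.79, 4.29 and 5.44 in high-DOX tumors, 9.86, 7.79 and 7.89 in low-DOX tumors and 4.56, 10.08 and 3.98 in OPC lesions. All low-DOX tumors lay above all high-DOX tumors, and OPC lesion 2 was the highest array while OPC lesion 3 was below background. The difference between tumors was −3.68 (SE 1.49, limma adjusted p = 0.467). Cxcl10 read 5.04, 5.15 and 4.88 in high-DOX tumors, 7.67, 5.44 and 5.33 in low-DOX tumors and 4.44, 9.46 and 4.96 in OPC lesions. Low-DOX replicate 1 and OPC lesion 2 stood apart from the other 7 arrays. These are the arrays with interferon response list means of 8.22 and 7.96, and the part of that response in the values was not tested. The receptor Cxcr3 stayed within a narrow range, with 5.14, 5.03 and 4.96 in high-DOX tumors, 5.17, 4.99 and 5.09 in low-DOX tumors and 4.77, 5.04 and 4.99 in OPC lesions. The values of Cxcr3 therefore did not share the spread of its ligands. They lay between 4.77 and 5.17, not far above the background thresholds of 4.23 to 4.5. At this level a flat reading of the probe set cannot be told from an unchanged receptor, and which of them holds was not tested.

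The promoters of Cxcl9 and Cxcl10 are shown because these genes spread most over the arrays, and those of Ccl12 and Ccl8 because both separated the tumors and lie next to each other in the RefSeq gene order. Each sequence is the stretch of 250 bases before the RefSeq start site in build GRCm38.p6, in the direction of the gene. Capitals mark matches on either strand to the core of the interferon-stimulated response element (GAAA, any 2 bases, GAAA) or to a loose kappaB motif (GGG, any 5 bases, CC). Overlapping kappaB matches were merged, and no match of one motif overlapped the other.
Cxcl9 (chr5:92328080-92328329, minus strand): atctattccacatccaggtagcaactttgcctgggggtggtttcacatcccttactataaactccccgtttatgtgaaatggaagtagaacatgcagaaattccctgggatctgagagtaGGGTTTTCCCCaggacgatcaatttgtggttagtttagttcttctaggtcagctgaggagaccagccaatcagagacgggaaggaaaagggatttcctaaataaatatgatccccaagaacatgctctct
Cxcl10 (chr5:92348890-92349139, minus strand): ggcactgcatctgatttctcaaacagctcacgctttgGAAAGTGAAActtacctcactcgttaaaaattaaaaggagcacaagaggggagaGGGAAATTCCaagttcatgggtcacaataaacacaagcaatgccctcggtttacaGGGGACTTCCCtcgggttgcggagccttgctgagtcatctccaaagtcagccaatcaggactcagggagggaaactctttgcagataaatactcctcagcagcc
Ccl12 (chr11:82101595-82101844, plus strand): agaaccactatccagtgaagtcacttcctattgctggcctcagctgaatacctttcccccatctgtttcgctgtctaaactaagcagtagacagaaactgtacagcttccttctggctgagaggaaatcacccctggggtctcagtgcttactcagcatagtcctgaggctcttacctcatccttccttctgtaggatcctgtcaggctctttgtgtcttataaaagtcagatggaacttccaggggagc
Ccl8 (chr11:82114935-82115184, plus strand): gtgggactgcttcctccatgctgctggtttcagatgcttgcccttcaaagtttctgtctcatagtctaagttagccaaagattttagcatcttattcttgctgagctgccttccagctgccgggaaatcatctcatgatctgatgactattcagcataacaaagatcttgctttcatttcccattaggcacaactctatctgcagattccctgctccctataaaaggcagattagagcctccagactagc

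The response element core was found in the Cxcl10 window, from 213 bases before the start site, and not in the other 3 windows. Over all RefSeq promoters, 2.98% of 32851 windows of this length hold it, and of the 42 chemokine and receptor genes with a window it was found in 2, Cxcl10 and Cxcl14. The kappaB motif was found from 130 bases before the start of Cxcl9 and from 159 and 104 bases before that of Cxcl10. It is common, being present in 45.8% of all windows and in those of 25 of the 42 genes. Neither motif was found in the Ccl12 or Ccl8 window. A match describes the letters only and shows no binding.

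Among the remaining CXC ligands, Cxcl14 varied little in high-DOX tumors and OPC lesions (SD 0.182 and 0.0728) and more in low-DOX tumors (SD 0.637). It read 9.75, 9.81 and 9.47 in high-DOX tumors, 9.90, 8.63 and 9.15 in low-DOX tumors and 9.89, 9.74 and 9.81 in OPC lesions, and its groups overlapped in every comparison. Low-DOX replicates 2 and 3 lay below every array of the other groups, and replicate 1 was the highest of the 9. The low-DOX minus OPC difference was −0.59 (SE 0.287, limma adjusted p = 0.531). Cxcl12, the ligand of Cxcr4 and Ackr3, read 5.99, 7.16 and 5.13 in high-DOX tumors, 5.97, 4.85 and 7.96 in low-DOX tumors and 6.08, 5.63 and 5.03 in OPC lesions. Its highest array, low-DOX replicate 3, is the one with fibroblast markers at 10.64, and the difference between tumors was −0.17 with that array and 0.68 without it. Cxcl13, which attracts B cells, ranged from 4.85 to 8.54 and overlapped throughout. Ccl25, an attractant of thymocytes and gut T cells, averaged 6.25 ± 0.192 in high-DOX tumors, 6.08 ± 0.55 in low-DOX tumors and 6.02 ± 0.113 in OPC lesions (SD, n = 3 each). The neutrophil attractants were low. Cxcl2, Cxcl3 and Cxcl15 were above background nowhere, Cxcl5 on 1 array and Cxcl1 on 8 of 9, and none of the 8 neutrophil markers was above background on any array.

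Of the 10 CC receptors, 9 had differences below 0 between the tumors (50% of all genes), with a median of −0.10. Of the 8 CXC, C and CX3C receptors 6 did, with a median of −0.22. Only 2 of the 10 and 4 of the 8 were above background on every array of 1 or both tumor groups. Many of these signs thus come from values near or below background, and the CC receptor median was smaller than the centring shift of 0.11. Cx3cr1, which marks microglia, read 7.46, 7.76 and 6.56 in high-DOX tumors, 9.30, 8.23 and 8.34 in low-DOX tumors and 7.44, 8.42 and 6.73 in OPC lesions. The tumors did not overlap, with a difference of −1.37 (SE 0.505, limma adjusted p = 0.44). Ccr1 read 3.94, 3.65 and 4.19 in high-DOX tumors, all below background, against 5.92, 4.80 and 6.92 in low-DOX tumors and 3.26, 5.70 and 4.20 in OPC lesions. It was at least 2.87-fold lower in high-DOX tumors (limma adjusted p = 0.432). Ccr2, the monocyte receptor of Ccl2 and Ccl12, read 3.13, 3.48 and 3.64 in high-DOX tumors, 5.22, 3.64 and 6.02 in low-DOX tumors and 3.32, 3.68 and 3.41 in OPC lesions. It was above background on 2 arrays, both low-DOX tumors, and was at least 1.52-fold lower in high-DOX tumors (limma adjusted p = 0.429), though the nearest arrays of the tumors both read 3.64 as rounded.

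Ccr7, which leads dendritic cells and naive T cells to lymph nodes, read 5.04, 4.65 and 5.35 in high-DOX tumors, 6.73, 6.25 and 5.77 in low-DOX tumors and 5.05, 5.63 and 4.67 in OPC lesions. Every low-DOX tumor was above all 6 other arrays. The difference from high-DOX tumors was −1.23 (SE 0.328, limma adjusted p = 0.384). Receptors of lymphocytes other than Ccr7 and Cxcr3 were mostly below background. Ccr8 and Cxcr6 passed on 1 low-DOX array each and on no other, Ccr4 on 1 high-DOX and 1 low-DOX array, Ccr10 on 1 high-DOX, 2 low-DOX and 1 OPC lesion array, and Ccr6 and Ccr9 nowhere. Cxcr5, a receptor of B cells, read 4.32, 4.33 and 4.39 in high-DOX tumors and 4.24, 4.13 and 4.24 in low-DOX tumors. The difference of 0.145 (SE 0.0917) had the reverse sign, but all these values lay near the background thresholds. Cxcr5 was above background on 2 high-DOX arrays and on no other, at 4.33 and 4.39 against thresholds of 4.3 and 4.35. Xcr1, the Xcl1 receptor of cross-presenting dendritic cells, passed on 1 array only, low-DOX replicate 1, at 4.66. Xcl1, a T and NK cell chemokine, read 6.68 in low-DOX replicate 1, against 3.78 to 4.41 on the other arrays. In that tumor 7 of the 7 T cell markers measured were above background, with a list mean of 6.25, against 3.98 to 4.81 elsewhere.

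Cxcr4 and the atypical receptors did not separate the tumors. Cxcr4 read 7.90, 7.14 and 8.32 in high-DOX tumors, 8.70, 8.43 and 7.45 in low-DOX tumors and 6.47, 8.05 and 7.57 in OPC lesions, a difference between tumors of −0.40 (SE 0.503). Ackr3, which takes up Cxcl12, read 6.58, 6.10 and 6.05 in high-DOX tumors and 5.56, 5.64 and 6.30 in low-DOX tumors, a difference of 0.41 (SE 0.284). All 4 atypical receptors had differences at or above 0.01, and none had an unadjusted p under 0.05. Ackr2, which clears inflammatory CC chemokines, averaged 5.97 ± 0.31 in high-DOX tumors, 5.96 ± 0.478 in low-DOX tumors and 6.17 ± 0.372 in OPC lesions (SD, n = 3 each). Ackr1, a venule and red cell receptor, was highest in high-DOX replicate 2, at 8.54, the array with the choroid plexus markers.

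**Figure D3:**
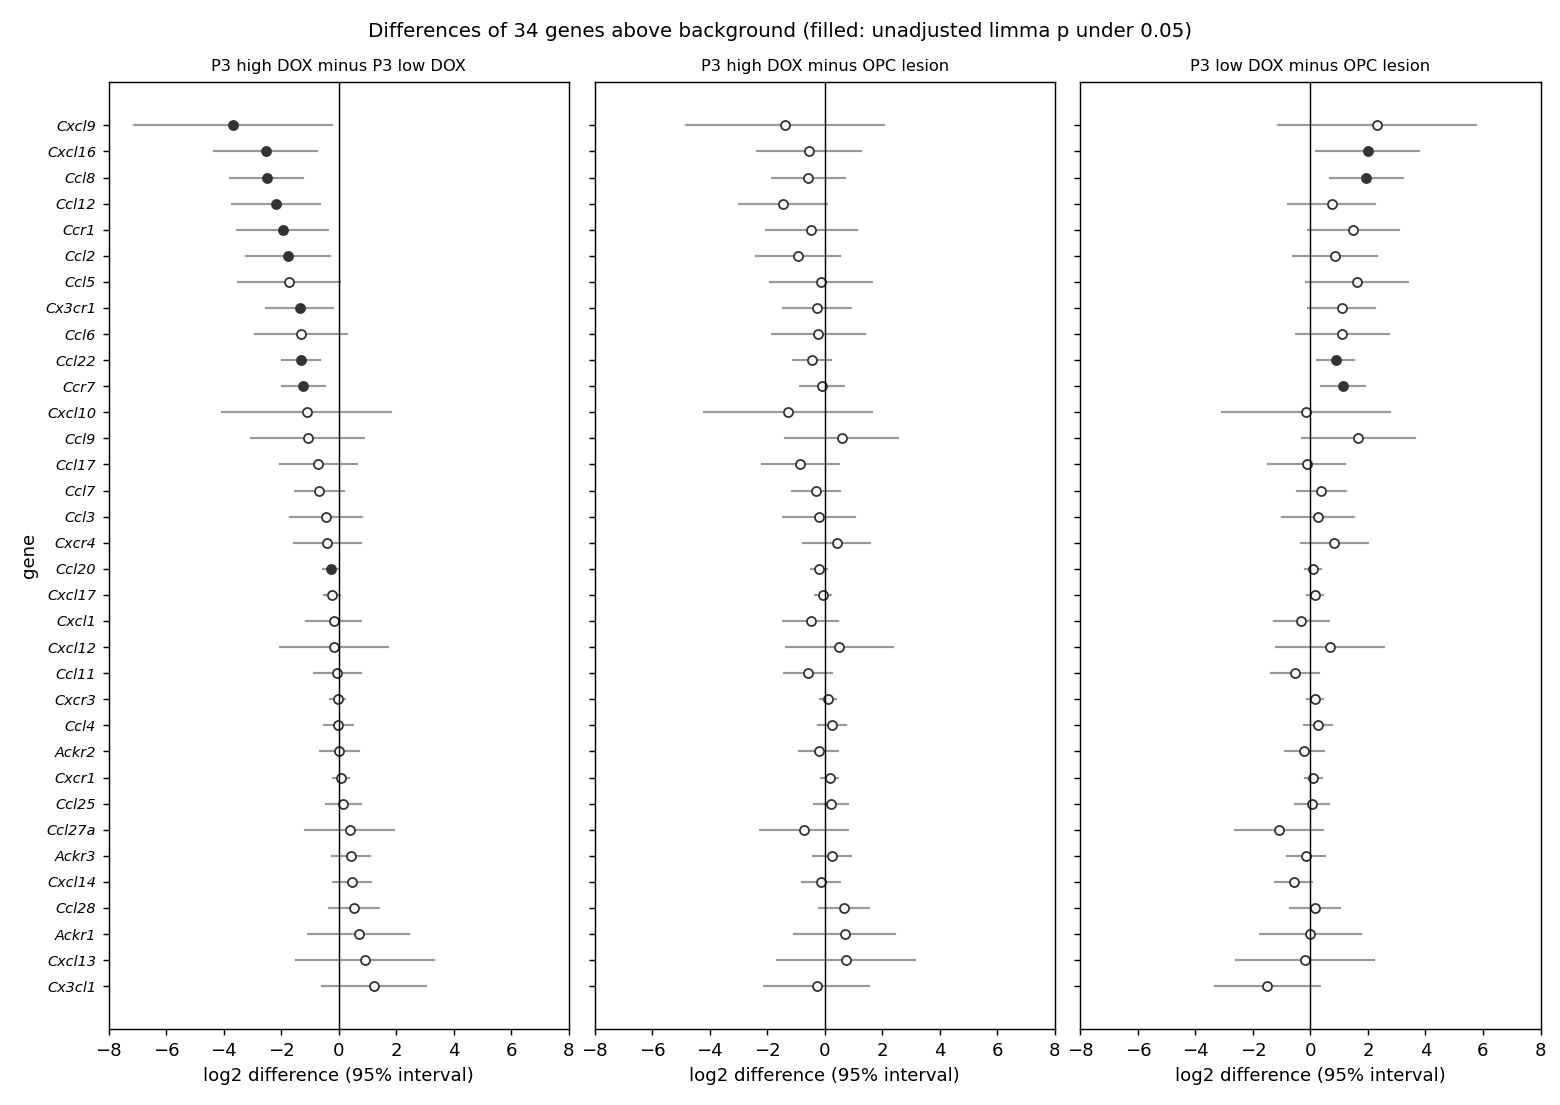
Log2 differences (x axis, points) with limma's 95% intervals (lines) of the 34 genes above background on every array of 1 or more groups, for high-DOX minus low-DOX tumors, high-DOX tumors minus OPC lesions and low-DOX tumors minus OPC lesions. Filled points have an unadjusted p under 0.05, and none passed after adjustment. Cxcl9 has the lowest difference in the first panel, −3.68.

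Several cell type marker lists also separated the tumors, and others did not. The mean of 8 markers of monocyte-derived and border macrophages lay between 4.68 and 4.77 in high-DOX tumors, between 5.95 and 6.60 in low-DOX tumors and between 4.59 and 5.32 in OPC lesions. The low-DOX tumors did not overlap the other groups on it. The microglia and macrophage list, with 11 markers measured, lay between 6.07 and 7.18 in high-DOX tumors, between 7.06 and 8.30 in low-DOX tumors and between 6.65 and 7.64 in OPC lesions, and the dendritic cell list between 5.88 and 6.12 in high-DOX tumors, between 6.44 and 7.49 in low-DOX tumors and between 5.80 and 6.80 in OPC lesions. Of the 11 microglia and macrophage markers, 4 (Aif1, Ptprc, Cd68 and Tmem119) and, of the 8 others, 4 (Ly6c2, Ms4a7, Mrc1 and Stab1) were lower in the high-DOX group at an unadjusted p under 0.05, with low-DOX tumors as the comparison, against 4.89% of all genes. The differences of 3 of the 11 and 2 of the 8 were above 0. T cell list means were at most 4.07 in high-DOX tumors and at least 4.26 in low-DOX tumors. Of the 7 T cell markers measured, all were above background in low-DOX replicate 1. Only 2 were in low-DOX replicates 2 and 3, as in high-DOX replicates 2 and 3, so the lower means lie near background. The microglia and macrophage, NK cell and neutrophil lists overlapped between the tumors. The list of 4 myelinating oligodendrocyte markers separated them too, between 6.83 and 8.39 in high-DOX tumors, between 8.5 and 11.32 in low-DOX tumors and between 7.28 and 9.42 in OPC lesions. Fewer cells of a type and less RNA per cell cannot be told apart in these bulk samples. The part of leukocyte or oligodendrocyte number in the chemokine differences was not tested.

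**Figure D4:**
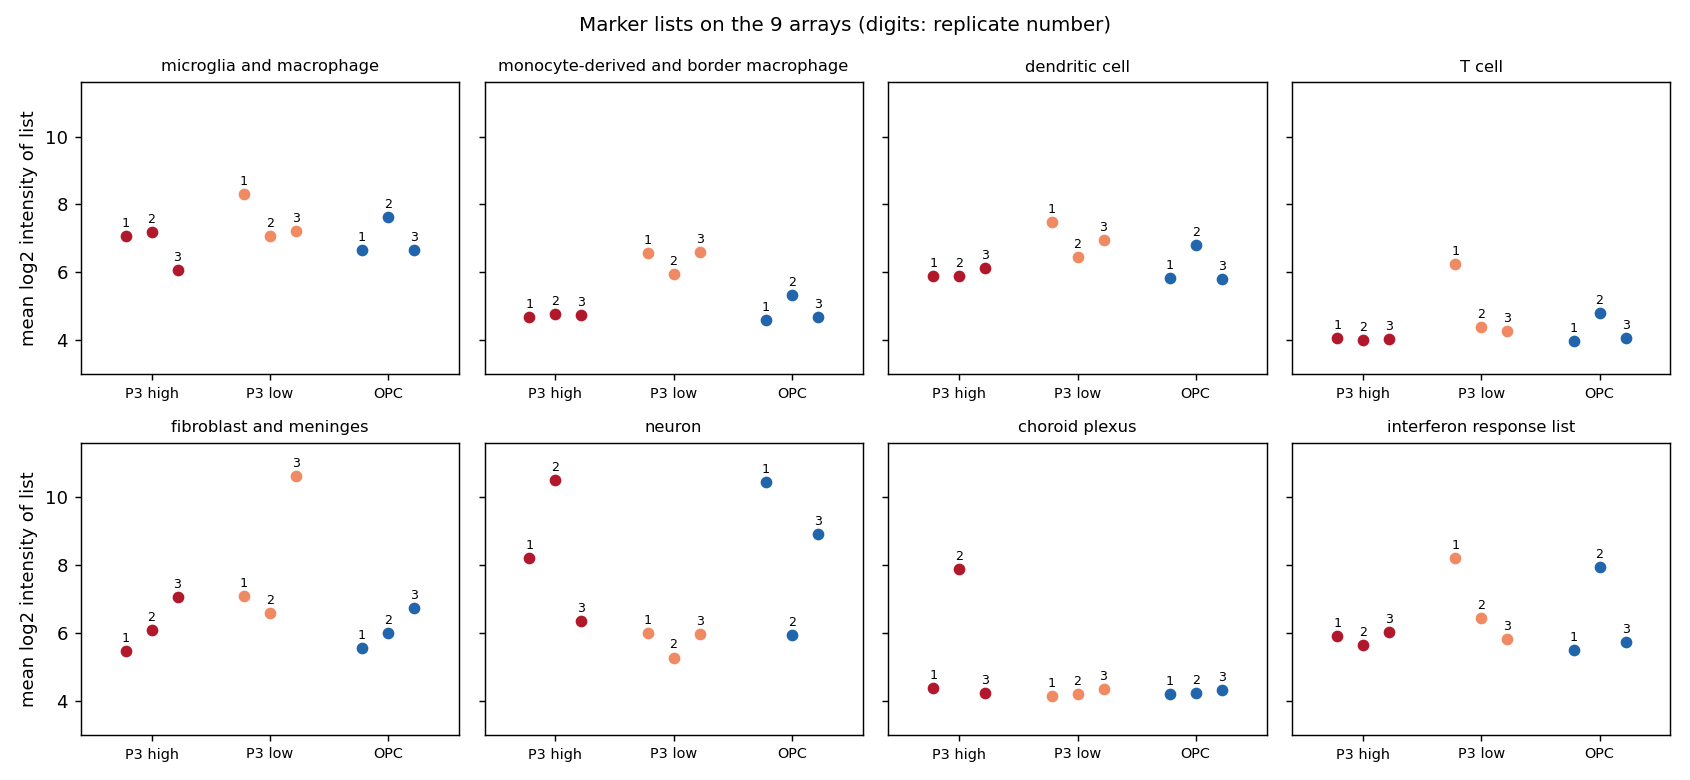
Mean log2 intensity (y axis) of 7 cell type marker lists and the interferon response list on each array of high-DOX P3 tumors, low-DOX P3 tumors and OPC lesions, with the replicate number at each point. The monocyte-derived macrophage list separates low-DOX tumors (5.95 to 6.60) from the other groups, and single arrays stand apart for T cells, fibroblasts, choroid plexus and interferon response.

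Other genes of chemokine signalling showed both directions. The 29 measured companion genes belong mainly to leukocyte signalling, adhesion and desensitisation. They also hold Pf4 and Ppbp, chemokines whose symbols fall outside the rule. Of the 29, 7 were lower and 2 higher in high-DOX tumors at an unadjusted limma p under 0.05 (4.89% and 5.25% of all genes). Among the 7, Pf4 was above background on 1 low-DOX array and on no high-DOX array. In all, 21 of the 29 differences were below 0 (50% of all genes). Rac2, a GTPase of blood cells needed for their migration, read 7.56, 7.24 and 7.37 in high-DOX tumors, 9.65, 8.65 and 9.35 in low-DOX tumors and 7.49, 9.26 and 7.69 in OPC lesions. Its tumor groups did not overlap, with a difference of −1.82 (SE 0.464, limma adjusted p = 0.376). Dock2, the leukocyte exchange factor that activates Rac, differed by −1.75 (SE 0.580, limma adjusted p = 0.429). Pik3cg, Pik3r5 and Plcb2, which carry the signal from G proteins, differed by −1.11, −1.17 and −1.10. The beta-arrestins, which desensitise the receptors, went in opposite directions: Arrb2 differed by −0.69 (SE 0.186) and Arrb1 by 0.71 (SE 0.205). The tumor groups did not overlap for either gene. The G protein subunit Gng2 differed by 0.95 (SE 0.322). Neuron list means were also higher on every high-DOX array (6.36 or more) than on any low-DOX array (5.99 or less), and the part of neurons in Arrb1 and Gng2 was not tested.

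High-DOX P3 tumors and OPC lesions differed least. They share their diet, and neuron list means also reached higher in both (up to 10.5 and 10.45) than in low-DOX tumors (5.99 at most). The part of diet or neurons in this was not tested. None of the 55 was called after adjustment (0% of all genes), and every adjusted p in this comparison rounded to 1. At an unadjusted limma p under 0.05, Ccl26 was higher (0.897% of all genes) and Cxcl5 lower (0.726%) in high-DOX tumors. Ccl26 was above background on none of these arrays and Cxcl5 on 1 OPC lesion array, so neither is a measured difference. In all, 38 of the 55 differences were below 0, against 51.8% of all genes, with a median of −0.09. After centring, which shifted all genes alike by −0.07, these were 40 and −0.15, and the share of all genes was not counted. By the methods' t-test, 2 of the 55, Ccl26 and Cxcr5, had an unadjusted p under 0.05, against 2.52% of all genes. Without overlap, Ccl8, Ccl12 and Ccl20 were lower in high-DOX tumors (3.02% of all genes) and Ccl26, Ccr4 and Cxcr5 higher (3.34%).

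The genes with the smallest p among those above background were Ccl12, Ccl28, Ccl11, Ccl20, Ccl17, Ccl2, Cxcr1 and Ccl4. Ccl12 differed by −1.45 (SE 0.660). Ccl28, a mucosal chemokine, read 5.83, 5.93 and 5.0 in high-DOX tumors, 4.58, 5.27 and 5.31 in low-DOX tumors and 5.18, 4.21 and 5.31 in OPC lesions, and its groups overlapped. Ccl11 (eotaxin), an eosinophil attractant, read 4.86, 4.81 and 5.19 in high-DOX tumors and 5.0, 6.47 and 5.15 in OPC lesions. OPC lesion 2 was the highest array, and the difference was −0.58 (SE 0.355). Ccl17 differed by −0.85 (SE 0.582), with high-DOX tumors at 4.26, 5.74 and 4.32 and OPC lesions at 6.01, 6.22 and 4.63. Ccl20, the ligand of Ccr6, read 4.63, 4.47 and 4.76 in high-DOX tumors and 4.86, 4.77 and 4.81 in OPC lesions, so the nearest arrays were at 4.76 and 4.77. Cxcr1 and Ccl4 stayed within overlapping ranges.

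OPC lesion 2 differed from the other OPC lesions for most of these genes. Of the 34 genes above background on every array of 1 or more groups, it was the highest of the 3 OPC lesions for 23, and OPC lesion 3 for 2. Without OPC lesion 2, the high-DOX minus OPC difference changed sign for Ccl5 (0.35), Cxcl16 (0.34), Ccl3 (0.36), Cxcl10 (0.32), Ccr1 (0.19), Cx3cr1 (0.18) and Ccr2 (0.05).

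Low-DOX P3 tumors also differ from OPC lesions in DOX dose, which cannot be told apart from tumor state in this comparison. They were higher than OPC lesions for Ccl8, Ccl22, Cxcl16, Ccr2 and Ccr7 at an unadjusted limma p under 0.05. These are 5 of the 55, against 4.4% of all genes, and 0 were lower, against 5.41%. None was called after adjustment (0% of all genes), and the lowest adjusted p among the 55 was 0.436. In all, 16 of the 55 differences were below 0, against 50.7% of all genes, with a median of 0.15. The count below 0 depended on the scaling. Centring shifted the differences of all genes alike by −0.18, after which 30 of the 55 were below 0 with a median of −0.03. Such a shift leaves the place of the 55 relative to all genes unchanged, and the share of all genes below 0 after centring was not counted. After centring, 3 of the 55 were higher (Ccl8, Ccr2 and Ccr7) and 2 lower at an unadjusted p under 0.05 (1.56% and 13.9% of all genes).

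By the methods' t-test, 1 of the 55, Ccr7, had an unadjusted p under 0.05, against 6.32% of all genes. Ccr7 differed by 1.13 (SE 0.328, limma adjusted p = 0.436) and was the only 1 of the 55 with all low-DOX tumors above all OPC lesions (6.34% of all genes). Ccl8 differed by 1.95 (SE 0.551, limma adjusted p = 0.436) and Ccl22 by 0.87 (SE 0.286, limma adjusted p = 0.461), and both overlapped through OPC lesion 2. Cxcl16 differed by 1.99 (SE 0.777, limma adjusted p = 0.49). Ccr2, below background in all OPC lesions, was at least 1.58-fold higher in low-DOX tumors (limma adjusted p = 0.484). Ccl5, Ccr1 and Cx3cr1 differed by 1.62, 1.49 and 1.10, with adjusted limma p values of 0.529, 0.521 and 0.521.

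Cx3cl1 and Ccl27a were the 2 genes with all low-DOX tumors below all OPC lesions (7.92% of all genes). Cx3cl1 differed by −1.51 (SE 0.788, limma adjusted p = 0.552). Ccl27a, a skin and testis chemokine, read 5.70, 5.62 and 5.81 in low-DOX tumors and 8.54, 5.90 and 6.0 in OPC lesions, so OPC lesion 1 set most of its difference of −1.10 (SE 0.664). Its probe set had the same values on all 9 arrays as 2 probe sets that name several Ccl27 genes, so the copies cannot be told apart. Cxcl9 and Cxcl10 differed by 2.31 (SE 1.49) and −0.14 (SE 1.26). Without OPC lesion 2, Cxcl10 differed by 1.44, and 13 of the 55 instead of 5 had an unadjusted p under 0.05, while the shares of all genes were 6.24% higher and 7.8% lower, instead of 4.4% and 5.41%.

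Within the low-DOX tumors the genes did not peak together. Among the 34 genes, replicate 1 was highest of the 3 low-DOX tumors for 15, replicate 3 for 15 and replicate 2 for 4. Replicate 1 led for Ccl5, Ccl8, Ccl12, Ccl22, Cxcl9, Cxcl10, Cxcl16, Ccr7 and Cx3cr1. Replicate 3 led for Ccl2, Ccl6, Ccl7, Ccl9, Ccl17, Cxcl12 and Ccr1. Ccl2, Ccl7, Ccl12 and Ccl8 stand in 1 run of 6 adjacent genes with Ccl11 and Ccl1 in the RefSeq gene order, and they were split between the tumors: Ccl2 and Ccl7 peaked in replicate 3, and Ccl12 and Ccl8 in replicate 1. The run Ccl5, Ccl9, Ccl6, Ccl3 and Ccl4 was split as well, with Ccl5 and Ccl3 highest in replicate 1 and Ccl9, Ccl6 and Ccl4 in replicate 3. In all, 30 of the 55 genes stand next to another of the 55.

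Of the 12 genes lower in high-DOX tumors at an unadjusted p under 0.05, 5 kept that p without low-DOX replicate 1 (Ccl8, Ccl12, Ccl22, Ccr7 and Cxcl16). Without low-DOX replicate 3, 6 kept it (the same 5 genes and Cx3cr1), and without high-DOX replicate 1, the same 6. Without high-DOX replicate 2, the array with choroid plexus markers, 8 kept it. With 3 arrays a group, the smallest p that an exact two-sided permutation test of a single gene can give is 0.1, and all genes without overlap reached it.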

How the data were processed

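Total RNA from flash-frozen tissue was hybridised to 9 arrays, and the deposited values are log2 intensities that the authors obtained by RMA. Whether the surrogate variable step named in their methods was applied to these values is not given in the sources used here. Depth does not apply to arrays, whose number (3 a group) limits the precision. Probe sets naming 1 gene (23521 of 25341 named ones) gave 22180 genes, each by its probe set with the highest mean. Differences were tested with limma 3.58.1 (R 4.3.3) over all 9 arrays with a mean per group, adjusted by Benjamini-Hochberg over all genes, at a threshold of 0.05, and intervals are at 95%. No gene had a detection p, so background was taken from 1405 sensory receptor genes. A gene over its threshold on no array of a group has only a bound there: fold bounds set the mean of the other group against, per array, the higher of the lowest signal above background and the gene's own. These bounds take the means as they are and carry no sampling error. The test was checked on simulated data. The series text calls the samples biological replicates, and no label ties an array to a mouse.

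Values were given for receptor and ligand pairs (Cx3cl1 and Cx3cr1, Ccl2 and Ccr2, Cxcl12 with Cxcr4 and Ackr3, Cxcl10 and Cxcr3, Cxcl16 and Cxcr6, and Ccl3, Ccl4 and Ccr1) for Ccl5, and, in each comparison, for the 8 genes with the smallest p among those above background in 1 of both groups. One gene of the family is not reported here. The genes, marker lists and alternatives were chosen with earlier results of these data known. Alternatives were centring, a filter on low values, probe set means, limma-trend, the 2 groups alone, a replicate block, the methods' t-test (two-tailed, general to the study), other background thresholds and leaving out arrays. Promoters come from RefSeq (GRCm38.p6) and gene order from its gene table for the same assembly. Python 3.11.15 with matplotlib 3.10.9 drew the plots.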

Additional observations from a re-analysis of the deposited data

Results flagged for a closer look

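In probe sets that name several genes and so stayed outside the comparisons, 8 of the 13 that name Ccl19 copies lay above the OPC lesions on every low-DOX P3 tumor array, as did 6.34% of the genes read by probe sets of their own. Ccl19 is a ligand of Ccr7. The low-DOX minus OPC differences of their means were 0.44, 0.49, 0.44, 0.49, 0.47, 0.59, 0.59 and 0.49 on the log2 scale. The gap was small for some, with a lowest low-DOX value of 5.9 against a highest OPC lesion value of 5.87 for the first of them. Several of these probe sets had identical values, so they are not independent. These differences were not tested.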

How the results depend on the processing

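None of the 55 genes passed the adjusted threshold in any comparison under any alternative, the replicate block included, nor when 2 arrays that stood apart were left out together (chosen after seeing the data). Replicate numbers did not pair the samples: correlations of same-numbered deviations ran from −0.478 to 0.265, and 0 of 9 arrays correlated best with their own number. With the replicate block, 9, 2 and 5 genes had an unadjusted p under 0.05 in high-DOX minus low-DOX, high-DOX minus OPC and low-DOX minus OPC, against 12, 2 and 5 without it. The shares of all genes for high-DOX minus low-DOX were 3.84% lower and 4.14% higher with the block and 4.89% and 5.25% without it. With the block the shares were 0.627% lower and 0.663% higher for high-DOX minus OPC, and 4.2% and 3.35% for low-DOX minus OPC.

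Leaving out 1 array moved these counts to between 7 and 16, between 1 and 4, and between 2 and 13. Low-DOX minus OPC reached 13 without OPC lesion 2 and 13 without low-DOX replicate 2, and fell to 2 without OPC lesion 3. All genes moved as well: in these settings 7.8%, 4.76% and 2.91% were lower and 6.24%, 4.71% and 2.25% higher. With 1 array left out, the share of all genes ran from 3.21% to 5.78% lower and from 2.96% to 6.51% higher for high-DOX minus low-DOX, and from 0.591% to 2.02% lower and from 0.654% to 1.87% higher for high-DOX minus OPC. With OPC lesion 2 and high-DOX replicate 2 both left out, the counts were 0 for high-DOX minus OPC and 12 for low-DOX minus OPC. The shares of all genes there were 2.61% lower and 1.55% higher, and 9.38% lower and 6.25% higher. With high-DOX replicate 2 and low-DOX replicate 3 both left out, high-DOX minus low-DOX gave 5, against 2.61% lower and 2.66% higher of all genes. High-DOX minus OPC gave 1 after centring, 1 without the lowest 25% of genes and 1 in a fit of those groups alone. In these settings 1.35%, 0.589% and 1.03% of all genes were lower and 0.442%, 0.655% and 1.03% higher. Low-DOX minus OPC gave 1 by the methods' t-test, against 3.6% lower and 2.72% higher of all genes.

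Over the genes above background in either group, the median differences were −0.34, −0.16 and 0.21, and between −0.47 and −0.22, between −0.20 and 0.16, and between 0.19 and 0.72 with 1 array left out. The second reversed to 0.16 without OPC lesion 2. The third was 0.55 at the 99th percentile of background. The counts above background were 12, 16 and 11 at that percentile and 11, 16 and 9 at the median of all genes, for high-DOX tumors, low-DOX tumors and OPC lesions. The shares of all genes at these thresholds were not counted.

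Of 59 differences of single genes, 41 kept their sign under all alternatives and 30 of 941 values were reversed. After centring, Cxcr3 (0.07 and −0.03 for high-DOX minus low-DOX and low-DOX minus OPC) and Ccl4 (0.10, high-DOX minus low-DOX) reversed. With 1 array left out, the high-DOX minus low-DOX difference ranged from −0.87 to 0.68 for Cxcl12, from −0.09 to 0 for Cxcr3 and from −0.06 to 0.02 for Ccl4. High-DOX minus OPC ranged from −1.13 to 0.51 for Cx3cl1, from −0.67 to 0.18 for Cx3cr1, from −0.16 to 0.09 for Ccr2, from −0.02 to 0.99 for Cxcl12, from −0.02 to 0.77 for Cxcr4, from −2.19 to 0.32 for Cxcl10, from −0.60 to 0.58 for Ccl5, from −1.20 to 0.34 for Cxcl16, from −0.60 to 0.36 for Ccl3 and from −1.03 to 0.19 for Ccr1. Low-DOX minus OPC ranged from −0.17 to 1.38 for Cxcl12, from −0.38 to 0.09 for Ackr3, from −1.07 to 1.44 for Cxcl10 and from −0.15 to 0.81 for Ccl3. The causes were not tested.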

Other observations

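The 9 probe sets that name several Ccl21 copies, ligands of Ccr7 like Ccl19, read 5.28 to 6.37 in high-DOX P3 tumors and 5.09 to 6.13 in low-DOX P3 tumors. In OPC lesions they read 8.49 to 10.19 in replicate 1, 5.36 to 6.27 in replicate 2 and 6.81 to 8.28 in replicate 3. OPC lesions 1 and 3 were above all tumors, and OPC lesion 2 was within their range. The 11 probe sets that name several Ccl27 copies read 8.54 to 9.56 in OPC lesion 1, against 5.19 to 8.48 on the other arrays.

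Cxcl11, the third ligand of Cxcr3 and a transcribed pseudogene in the RefSeq mouse annotation, read 4.81, 4.71 and 4.58 in high-DOX tumors, 6.80, 4.89 and 5.05 in low-DOX tumors and 3.89, 6.30 and 4.84 in OPC lesions. Its highest arrays, low-DOX replicate 1 and OPC lesion 2, were those that stood apart for Cxcl10.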
